A study of Mus musculus with 10 samples.

Results

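Open chromatin at the loci of 7 Hedgehog pathway genes, Smo, Ptch1, Gli1, Gli2, Gli3, Hhip and Sufu, was read from bulk ATAC-seq peak lists of mouse epicardial cells and their mesenchymal progeny. A peak belonged to a gene where its summit lay inside the gene or within 25 kb of it on mm10, and to its promoter where the summit lay within 1 kb of a transcription start site of a protein-coding transcript. The 9 lists held 1199 such summits of 1071660 in all. The loci held 193 of 184764 regions, each reaching 250 bp to either side of a summit. A summit close to a stronger one could fall in no region. The genes were taken by name as members of the pathway, with no threshold on a measured value. ATAC-seq marks DNA that a transposase can reach, and says nothing by itself of whether a gene is transcribed.

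All cells came from Rosa26tdTomato; Wt1CreERT2/+ embryos on a C57BL/6J background, whose mothers received tamoxifen at E9.5, so tdTomato marks cells in which the Wt1-driven Cre was active around that time and their descendants. CD31-tdTomato+PDPN+ cells were taken as epicardium, from 3 pools of 6 hearts at E11.5 and 3 pools of 4 hearts at E17.5. CD31-tdTomato+PDPN- cells were taken as epicardium-derived cells (EPDC), from 1 sample at E12.5 and 2 samples at E13.5, with pools of 4 to 13 hearts at E13.5. One E13.5 sample was sequenced as a pair of technical replicates that share 1 list, so 10 samples gave 9 libraries, 3 per group. Sort gate, stage and the making of the lists differ together between EPDC and epicardium, and their effects cannot be told apart.

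In the Hedgehog pathway, a secreted ligand (Shh, Ihh or Dhh) binds the receptor Ptch1, which otherwise holds the membrane protein Smo inactive in the primary cilium. Active Smo frees the Gli transcription factors from Sufu, their cytoplasmic partner. Gli2 then acts mainly as an activator and Gli3 mainly as a repressor when the signal is off, whereas Gli1 is an activator that is itself a target. Ptch1 and Hhip, a membrane protein that binds the ligands, are targets too and restrain the pathway. In the embryonic heart, Hedgehog signals act in the epicardium and the tissue under it and are needed for coronary vessels to form.

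The height of a peak is given as a rank percentile: the highest summit inside a region was ranked by its −log10 p among all summits of the same list, so that 100 is the strongest summit of a library and 0 means that no summit was called there. A value of 0 is not proof of closed chromatin: a summit may lie below the peak caller's threshold, or a called peak may cover the region with its summit elsewhere. Lists held 94909 to 142743 summits, and those of E11.5 were on the whole longer. A weak site is therefore more often called, and a called site ranks higher, in E11.5 epicardium, and counts are given also with every list cut to its 94909 strongest summits (equal numbers). Each sample held 40000 to 50000 sorted cells. The read depth is not in the lists, which limits what can be said of precision, and in bulk samples fewer cells with an open site and a less open site in each cell cannot be told apart.

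The sorted cells were checked against marker genes at their promoters. Of 8 epicardial genes, 7 had a promoter summit in each E11.5 and EPDC library and 8 in each E17.5 library. The exception was Msln, encoding mesothelin. The mean percentile over the epicardial list was 83.1 to 84.3 at E11.5, 90.3 to 93.6 at E17.5 and 67.8 to 77.1 in EPDC. Over 6 mesenchymal genes it was 64.4 to 69.1, 76.7 to 78.0 and 77.5 to 82.9. No library had a summit at the promoters of Cdh5, Emcn, Ptprc, Hba-a1, Spi1 or Myh6, which mark endothelium, blood and cardiomyocytes, and 1 to 2 of 5 blood genes, 2 to 3 of 5 endothelial genes and 2 to 4 of 5 cardiomyocyte genes had one. The part of these lists in the results was not tested.

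All 7 Hedgehog genes had a promoter summit in all 9 libraries, 63 of 63 gene and library pairs. By the mean over the libraries, the order was Sufu (98.1), Gli3 (95.4), Smo (94.6), Gli2 (89.99), Gli1 (89.9), Ptch1 (80.3) and Hhip (75.1). Over all 21829 protein-coding genes, 63.9% had a promoter summit in every library and the median mean percentile was 81.7, so that Ptch1 and Hhip lay below the middle gene and Sufu above 90.6% of genes.

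The promoter of Sufu stood at 97.9, 98.5 and 98.8 in the E11.5 libraries, 97.5, 97.5 and 97.3 at E17.5 and 98.6, 98.0 and 98.7 in EPDC. For Gli3 the values were 95.2, 95.7 and 97.5 at E11.5, 92.4, 93.9 and 93.4 at E17.5 and 97.6, 96.5 and 96.5 in EPDC. For Smo they were 93.5, 97.2 and 95.1, then 92.6, 92.5 and 91.8, then 96.4, 96.1 and 96.7. In each of these genes the E17.5 libraries were the 3 lowest, at Sufu by a mean of less than 1 point. Gli2 gave 89.1, 90.9 and 91.1 at E11.5, 88.7, 88.7 and 89.9 at E17.5 and 85.9, 92.5 and 93.2 in EPDC, and Gli1 gave 92.4, 91.0 and 89.1, then 87.0, 92.0 and 90.2, then 87.5, 89.4 and 90.2. The groups overlapped at both genes.

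The receptor and the ligand trap had the weakest and most variable promoters. Ptch1 ranged over 78.0, 84.3 and 87.1 at E11.5, 69.3, 84.2 and 75.6 at E17.5 and 79.5, 81.0 and 83.9 in EPDC, and the groups overlapped. Hhip was at 78.2, 83.3 and 74.5 at E11.5, 62.5, 61.7 and 70.5 at E17.5 and 75.5, 84.4 and 85.1 in EPDC. Every E17.5 value of Hhip lay under every other value. The group means were 78.7 ± 4.41, 64.9 ± 4.86 and 81.7 ± 5.37 (SD, n = 3 libraries each), and E17.5 differed from both others with an exact two-sided permutation p of 0.1, the smallest that 3 against 3 libraries allow. With equal numbers the E17.5 and E11.5 values of Hhip overlapped (48.3 to 66.6 against 63.0 to 74.9), while the EPDC values (73.6 to 82.4) lay above those of E17.5 and overlapped those of E11.5.

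**Figure D1:**
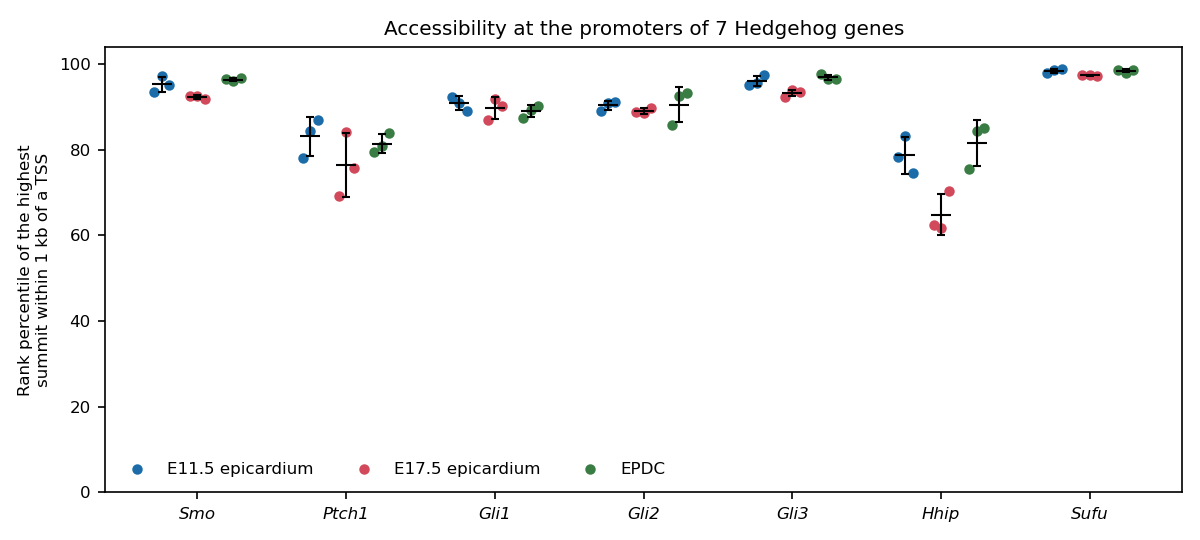
Rank percentile of the highest summit within 1 kb of a start site (vertical axis, 0 to 100) for the 7 genes (horizontal axis), with 1 point per library, coloured by group, and black bars for the mean and SD of 3 libraries. Hhip has the lowest E17.5 values, 61.7 to 70.5, whereas Sufu lies between 97.3 and 98.8 in all libraries.

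In 4 of 7 genes (Smo, Gli3, Hhip and Sufu) the promoter values of E17.5 lay wholly below those of E11.5, and in none wholly above; among 15865 promoters with a summit, 25.6% lay wholly below and 10.8% wholly above. With equal numbers only Gli3 was left of the 4. For EPDC against E17.5 the same 4 genes lay wholly above, also with equal numbers, and none wholly below, where 20.1% and 18.5% of promoters did. For EPDC against E11.5 none of the 7 was apart in either direction, against 9.39% of all promoters above and 24.5% below. By likeness of the 9 values, the promoters nearest to that of Hhip, the one member that ranged over more than 20 points, were those of Spred1 and Mixl1, at Euclidean distances of 9.3 and 9.6 points.

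The 193 regions were spread unevenly. Gli2, a gene of 219 kb, had 55 regions, Gli3 (267 kb) 48, Sufu (91.9 kb) 37, Ptch1 (65.3 kb) 24, Smo (25.9 kb) 13, Gli1 (12.1 kb) 12 and Hhip (92.2 kb) 4. Per 100 kb of locus this was 26.1 regions for Sufu and 15.2 to 20.8 for the other genes except Hhip, which had 2.81. Of the 193, 22 were promoter regions, 143 lay inside the gene, and 8 lay within 1 kb of a start site of another gene (Ahcyl2, Fancc, Mars, Actr1a or Trim8). A summit was called in all 9 libraries in 52 regions, 26.9% against 24.7% of all regions.

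**Figure D2:**
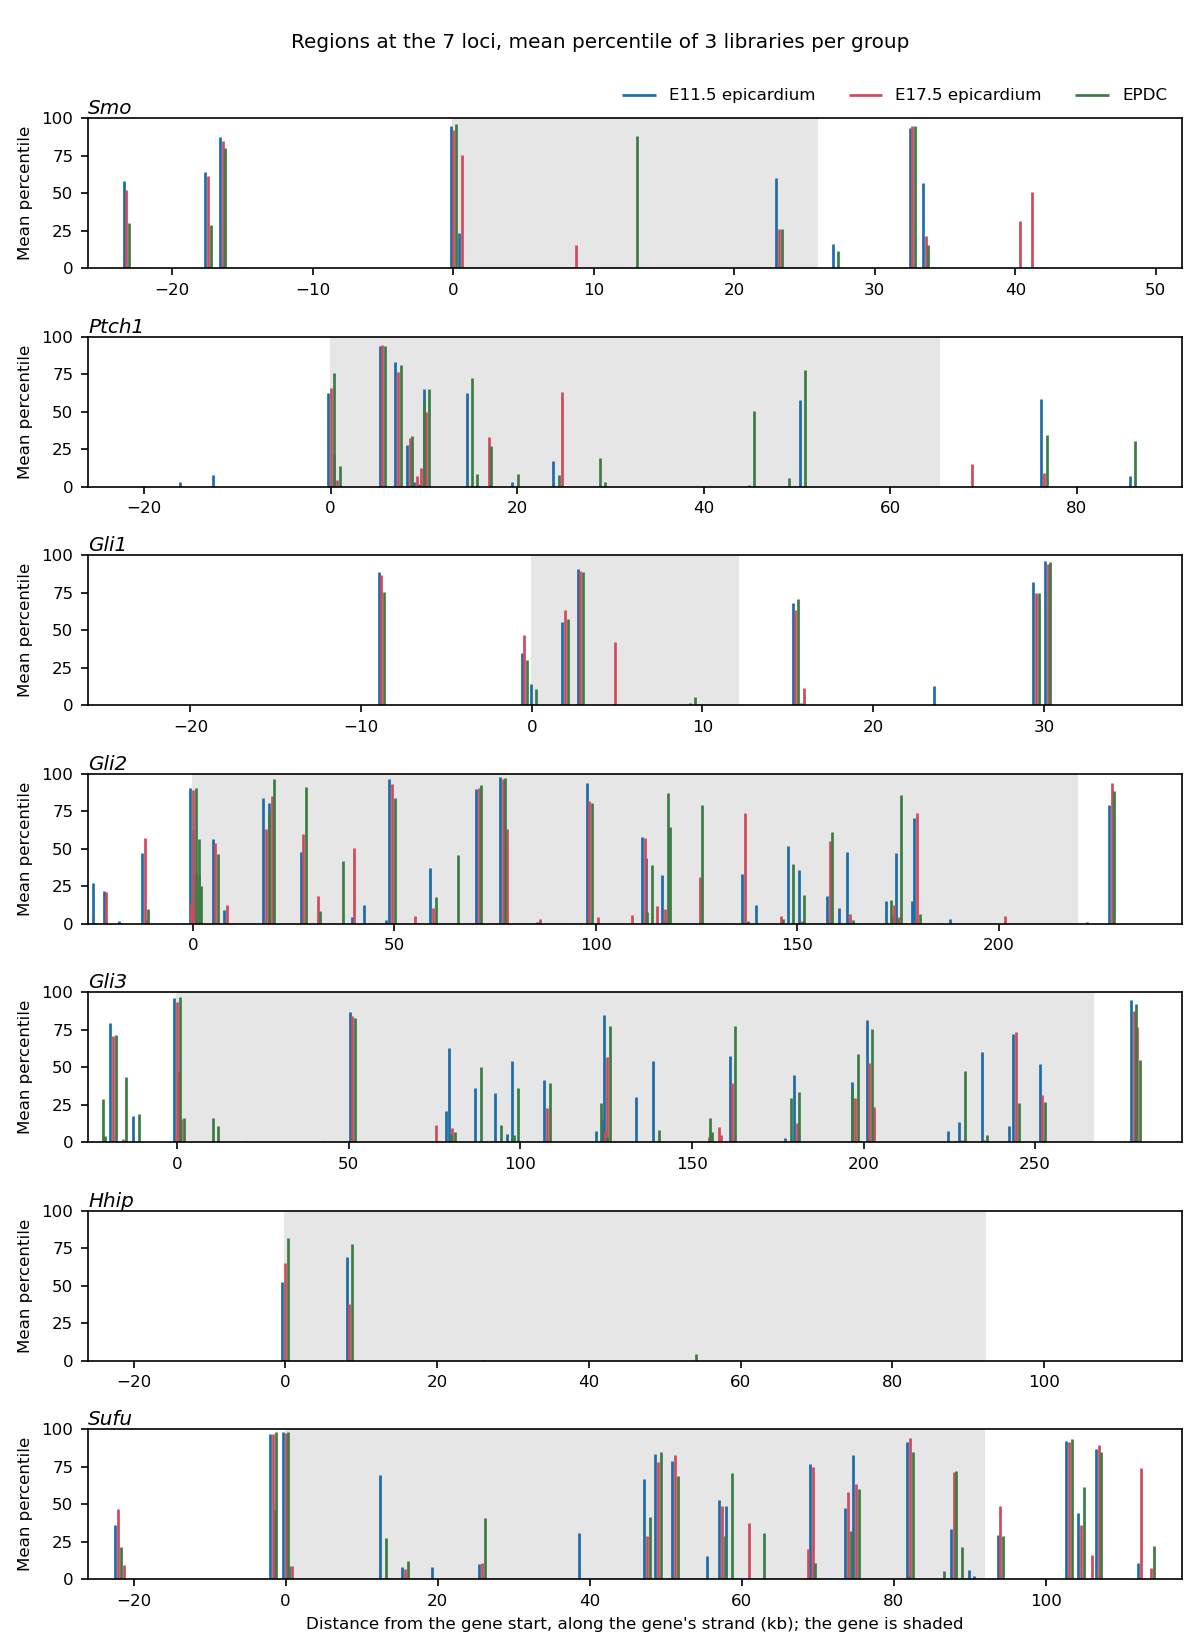
Regions at the 7 loci by distance from the gene start in kb along the gene's strand (horizontal axis, gene shaded), with the mean percentile of 3 libraries per group as the height of a line (vertical axis); lines of a region are set slightly apart by group. Gli2, Gli3 and Sufu have the most regions, and Hhip has almost none outside its promoter and 1 intronic site.

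Differences were tested with limma on the percentiles of the 130905 regions called in at least 3 libraries, 133 of them at the 7 genes, with Benjamini-Hochberg adjustment over all tested regions and a threshold of 0.05. From E11.5 to E17.5 epicardium, 16 of 133 regions rose (12.0%, against 11.2% of all regions) and 33 fell (24.8%, against 30.5%). With equal numbers 18 rose and 21 fell, where 15% and 17.8% of all regions did. In EPDC against E11.5 epicardium, 20 regions were higher (15.04%, against 12.7%) and 25 lower (18.8%, against 28%), and with equal numbers 24 and 16, against 15.3% and 17.53%. In EPDC against E17.5 epicardium, 33 were higher (24.8%, against 24.2%) and 20 lower (15.04%, against 20%), and with equal numbers 28 and 19, against 21.8% and 20.6%. The shares of higher regions were thus near those of all regions, and the shares of lower regions were below them. The comparisons share libraries and are not independent of each other. The median difference over the 133 regions was -2.49, -1.82 and 1.66 points in that order, beside -5.51, -4.70 and 0.28 over all regions, and with equal numbers it was 0, 0 and 1.10, beside 0 in each comparison over all regions. Of the 193 regions, 3 were called in all E11.5 libraries and in no other, 6 in all E17.5 libraries only and 5 in all EPDC libraries only. Of all 184764 regions, 3.75%, 2.98% and 3.23% were called in these ways. More broadly, 45 of the 133 (33.8%, against 37.3% of all tested regions) were called in fewer than 3 libraries once their most often called group was set aside. These entered the test only through that group and add to the counts by that choice, so the values of those described are given without a p. Among the 88 regions left, 7 were higher (7.95%, against 7.65% of all regions left) and 25 lower (28.4%, against 32.6%) at E17.5 than at E11.5. In EPDC, 15 were higher (17%, against 9.9%) and 18 lower (20.5%, against 29.3%) than at E11.5, and 26 were higher (29.5%, against 27.5%) and 11 lower (against 21.1%) than at E17.5.

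**Figure D3:**
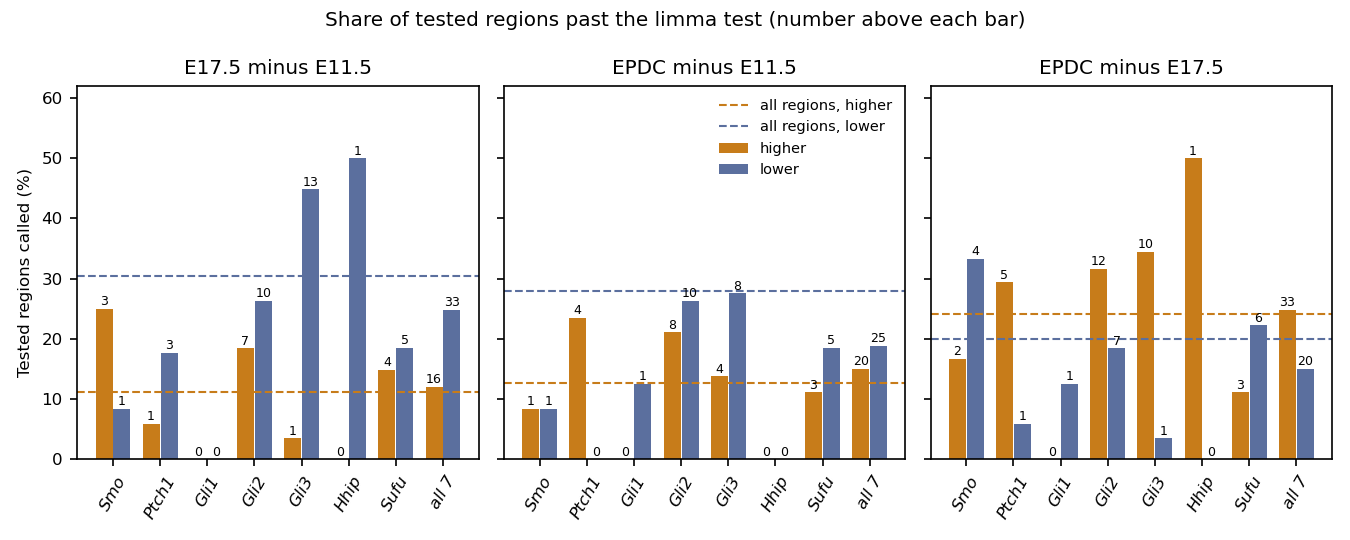
Share of tested regions past the limma test (vertical axis, percent) for each gene and for all 7 together, in 3 comparisons; bars are regions higher (orange) or lower (blue) in the first-named group, with their number above, and dashed lines give the share of all 130905 regions. Gli3 has 13 lower regions at E17.5 and 10 higher ones in EPDC against E17.5, and Gli1 has at most 1 in any comparison.

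Of the 17 tested regions of Ptch1, 4 were higher in EPDC than in E11.5 epicardium (23.5%, against 12.7% of all regions) and 0 lower (against 28%), and 5 were higher than in E17.5 epicardium (29.4%, against 24.2%) and 1 lower (5.88%, against 20%); with equal numbers the counts were 5 and 0, then 4 and 1. Of the 10 that did not enter through 1 group, 3 were higher in EPDC in each comparison (30%, against 9.9% and 27.5% of all regions left) and 0 lower (against 29.3% and 21.1%). The medians of the Ptch1 regions were 4.85 and 9.45 points. A pair of intronic sites was called in all E11.5 and EPDC libraries and in no E17.5 library. The one at chr13:63522746-63523246 had percentiles of 58.6, 62.5 and 51.8 at E11.5, 0 in each E17.5 library and 79.4, 76.1 and 78.5 in EPDC. It fell by 57.6 ± 4.97 points (SE) between E11.5 and E17.5 (adjusted p = 3.96e-05), and was 78.0 points higher in EPDC than at E17.5 (adjusted p = 6.21e-06). With equal numbers these differences were -40.5 and 73.6 points (adjusted p = 0.000589 and 1.77e-05).

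The second site, chr13:63558438-63558938, 5.6 kb inside the nearest start site, stood at 59.2, 64.6 and 63.3, then 0, 0 and 0, then 78.1, 67.4 and 72.8. Its fold enrichment over local background was 4.34 to 5.40 at E11.5 and 5.64 to 8.92 in EPDC. The change was -62.4 ± 5.05 points between E11.5 and E17.5 (adjusted p = 3.08e-05) and 72.8 points between E17.5 and EPDC (adjusted p = 8.66e-06). With equal numbers the changes at this site were -47.4 and 67.2 points (adjusted p = 0.000109 and 1.1e-05). The sequence of 200 bases around its summit (mm10 chr13:63558588-63558787, plus strand) is shown as the largest Ptch1 difference whose 200 bases touch no untranslated exon. None of the 6 motifs searched, which are spelled out with the motif counts, lies in it:
Ptch1 intron: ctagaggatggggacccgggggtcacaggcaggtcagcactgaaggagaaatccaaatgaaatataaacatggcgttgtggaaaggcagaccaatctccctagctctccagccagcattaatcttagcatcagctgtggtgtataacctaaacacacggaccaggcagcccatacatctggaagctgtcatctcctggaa
A further intronic region ran the other way: chr13:63548486-63548986 was at 0 in every E11.5 and EPDC library and at 49.3, 69.0 and 70.4 at E17.5. The difference of the means was 62.9 points.

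Near the inner start sites of Ptch1, chr13:63563617-63564117 was at 2.5, 2.2 and 0 at E11.5, 8.2, 0 and 30.3 at E17.5 and 43.8, 57.3 and 70.9 in EPDC, and was 55.8 ± 9.22 points higher in EPDC than at E11.5 (adjusted p = 0.00144). Read as any called interval over the window, in place of a summit within it, the difference shrank to 5.64 (adjusted p = 0.604). Farther in, chr13:63528196-63528696 was at 0, 0 and 3.5, then 0, 0 and 0, then 37.4, 52.2 and 62.4 (a difference from E11.5 of 49.5 points). The strongest site of the locus outside its promoters, chr13:63567806-63568306 in an intron, stood between 93.0 and 95.6 in all 9 libraries and did not pass the test in any comparison.

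Ptch1 is the classical target gene of the Gli factors, and its promoters held the match to the Gli site that is known from it. A search of both strands for GACCACCCA found an exact match in 3 of 193 regions (1.55%, against 0.442% of all 184764 regions), of which 2 are promoter regions of Ptch1. Those regions stood at 78.0, 84.3 and 87.1, then 69.3, 84.2 and 75.6, then 79.5, 81.0 and 83.9 (chr13:63566127-63566627), and at 62.6, 56.1 and 68.7, then 63.6, 67.7 and 66.6, then 73.5, 78.2 and 76.9 (chr13:63573298-63573798, at the gene start). The gene-start region was 13.7 points higher in EPDC than at E11.5 (adjusted p = 0.0175), and 24.4 points with equal numbers (adjusted p = 0.0140). The remaining match is in an intergenic region 16.6 kb upstream of Smo (chr6:29718828-29719328), which stood between 73.6 and 87.8. The 3 matches are printed with their flanks, plus strand of mm10, with the match in capitals; the stretch at the gene start is short because it lies in the 5′ untranslated region:
Ptch1 inner promoter, chr13:63566415-63566463: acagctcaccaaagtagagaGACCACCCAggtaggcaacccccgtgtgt
Ptch1 gene start, chr13:63573455-63573483: gccctcggcgTGGGTGGTCtgccgcgcca
Smo upstream, chr6:29719053-29719101: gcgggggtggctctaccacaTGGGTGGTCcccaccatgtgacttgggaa
The stretches at the Ptch1 gene start and upstream of Smo carry the match on the minus strand. The match is a description of the letters and no measurement of binding.

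Hhip had only 2 tested regions, its promoter and 1 site in an intron 8.4 kb inside the gene. The intronic site, chr8:80049315-80049815, was called in all 9 libraries, at 70.6, 67.0 and 69.9 in E11.5, 45.7, 39.2 and 29.1 in E17.5 and 77.1, 73.5 and 83.3 in EPDC. The 3 E17.5 libraries were the lowest and the 3 EPDC libraries the highest, with no overlap between any groups. It fell by 31.2 ± 4.99 points between E11.5 and E17.5 (adjusted p = 0.00107) and was 39.97 points higher in EPDC than at E17.5 (adjusted p = 0.000208), in the same direction as the promoter. Fold enrichment over background ran from 9.23 to 11.1, 5.47 to 7.83 and 13.53 to 14.7 in the 3 groups. Its 200 central bases (chr8:80049465-80049664) hold none of the 6 motifs, but the region carries, just outside them, a Gli site with 1 mismatch on the minus strand, given in capitals in the second stretch (chr8:80049435-80049483):
Hhip intron: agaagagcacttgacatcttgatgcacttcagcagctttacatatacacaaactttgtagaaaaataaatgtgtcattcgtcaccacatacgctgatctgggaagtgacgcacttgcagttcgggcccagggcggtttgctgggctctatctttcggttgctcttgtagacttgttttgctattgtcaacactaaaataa
Hhip intron, Gli match with 1 mismatch: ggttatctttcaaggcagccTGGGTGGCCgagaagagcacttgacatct
The single promoter region of Hhip did not pass the test in any comparison. In E11.5 replicate 1 no summit was called in that region, although one was called within 1 kb of the start.

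Smo, the signal transducer, had a promoter that fell by 3.00 ± 0.935 points between E11.5 and E17.5 (adjusted p = 0.0295) and was 4.12 points higher in EPDC than at E17.5 (adjusted p = 0.00596). The former did not pass with equal numbers (adjusted p = 0.141), with a log2 depth-normalized score (0.652), or in 5 of 6 fits that left out 1 library (0.0539 to 0.0895, the exception being E11.5 replicate 1), and the values are those given for chr6:29735259-29735759 in the account of promoters. Downstream of the start, chr6:29735863-29736363 in the first coding exon was at 0, 0 and 71.4 at E11.5, 72.1, 75.6 and 78.5 at E17.5 and 0 in EPDC. By summits the difference of E17.5 from E11.5 was 51.6 points. Read as any called interval over the window, it was -3.00, of the opposite sign and equal to that of the promoter region beside it. A further difference lay 41.0 kb from the start, in an intron of Ahcyl2 (chr6:29776460-29776960): 0 in all E11.5 and EPDC libraries, 50.5, 60.2 and 41.6 at E17.5 (means 50.8 points apart).

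The largest difference among the tested regions of the 7 genes was in an intron of Smo, at chr6:29748116-29748616. The region was at 0 in all 6 epicardial libraries and at 86.4, 86.9 and 91.1 in EPDC, with a fold enrichment of 14.6 to 16.5 (a difference of 88.1 points). Its sequence is a run of short repeats, as the 200 bases around the summit show (chr6:29748266-29748465):
Smo intron: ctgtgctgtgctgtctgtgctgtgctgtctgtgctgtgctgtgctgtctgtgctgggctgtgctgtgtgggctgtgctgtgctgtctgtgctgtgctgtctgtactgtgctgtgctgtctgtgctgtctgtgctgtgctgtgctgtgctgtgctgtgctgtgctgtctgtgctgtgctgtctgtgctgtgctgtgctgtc
Only 40 of the 496 possible 6-base words in the region were distinct, fewer than in all but 0.0233% of regions, and 99.2% of its bases are masked as repeats in the reference. It was the 1 member region with under 200 distinct words. Such regions made up 77 of the 5959 regions (1.29%) that all 3 EPDC libraries and no other called, beside 7 of 6924 (0.101%) for E11.5, 12 of 5497 (0.218%) for E17.5 and 0.256% of all regions. EPDC lists also hold 252 to 268 peaks outside the assembled chromosomes and the epicardial lists none, so the lists were made differently; the part of this in the Smo site was not tested. Without it, 19 and 32 regions were higher in EPDC than in E11.5 and E17.5 epicardium.

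A region in an untranslated exon of Tspan33, upstream of Smo (chr6:29717805-29718305), was at 59.3, 70.0 and 63.2, then 54.5, 68.5 and 61.2, then 34.2, 7.5 and 44.9, and the difference of EPDC from E11.5 was -35.3 ± 9.15 points (adjusted p = 0.0136). That call was lost without E11.5 replicate 2 (adjusted p = 0.0558), with summits ranked by fold enrichment (0.0773) and by any overlapping interval (0.297). The site of highest mean outside the promoter, chr6:29767928-29768428, is the promoter of the neighbouring Ahcyl2 and stood between 92.5 and 96.0.

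Sufu, the restraint on Gli proteins, combined the strongest promoter with 27 tested regions, of which 4 rose and 5 fell from E11.5 to E17.5, and 3 were higher and 5 lower in EPDC than at E11.5. These were 14.8% and 18.5%, against 11.2% and 30.5% of all regions, and 11.1% and 18.5%, against 12.7% and 28%. With equal numbers 6 rose and 4 fell, and 4 were higher and 4 lower. Against E17.5, EPDC had 3 higher and 6 lower regions, and with equal numbers 2 and 5. The former were 11.1% and 22.2%, against 24.2% and 20% of all regions. Intronic chr19:46484532-46485032 was low at E11.5 (33.3, 32.6 and 34.8) and higher in every later library, at 72.5, 74.4 and 67.0 in E17.5 and 64.2, 72.3 and 80.7 in EPDC. The differences were 37.7 ± 4.95 and 38.8 points (adjusted p = 0.000347 and 0.000351), and 59.7 and 60.6 with equal numbers. In contrast, chr19:46465984-46466484 was at 72.1, 78.0 and 80.0 at E11.5, at 73.8, 83.6 and 66.0 at E17.5 and at 15.8, 0 and 16.2 in EPDC (-66.0 ± 6.48 points against E11.5, adjusted p = 9.51e-05). The former separates E11.5 from both later groups, the latter EPDC from both epicardial groups.

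Further Sufu regions were called in 1 or 2 of the groups. At chr19:46454992-46455492, in an untranslated part of a Sufu transcript, values were 46.4, 59.1 and 41.4, then 0, 0 and 0, then 63.7, 68.9 and 79.1, the same shape as the Ptch1 introns (-49.0 points between E11.5 and E17.5, adjusted p = 0.00038, and -28.7 points with equal numbers, adjusted p = 0.00942). Intronic chr19:46409456-46409956 was at 55.9, 78.9 and 74.6 at E11.5, 0 in each E17.5 library and 35.4, 0 and 46.6 in EPDC (a difference of -69.8 points between E11.5 and E17.5). A weak site called in EPDC only, chr19:46459273-46459773, reached 27.6, 28.9 and 35.2 (a difference of 30.6 points, and 17.2 with equal numbers). The site of highest mean outside the promoter belongs to the neighbouring Actr1a (chr19:46394999-46395499, 95.6 to 98.9).

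The largest Sufu difference lay beyond the gene in an intron of Trim8, chr19:46509145-46509645, at 0, 12.9 and 18.3 in E11.5, 64.1, 81.8 and 76.4 in E17.5 and 0 in each EPDC library (means 63.7 points apart for E17.5 minus E11.5 and -74.1 for EPDC minus E17.5). It was the only one of the sequences chosen for their difference to hold any of the motifs: TGANTCA, the core of the AP-1 site, occurs at both capital stretches of its 200 central bases (chr19:46509295-46509494), the second of which runs into a T-box core, AGGTGTGA, on the minus strand:
Sufu locus, Trim8 intron: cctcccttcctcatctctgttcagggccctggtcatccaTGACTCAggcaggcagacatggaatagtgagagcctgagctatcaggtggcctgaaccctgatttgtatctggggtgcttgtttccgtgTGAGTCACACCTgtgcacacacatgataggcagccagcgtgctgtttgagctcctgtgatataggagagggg
Across all regions, the AP-1 core was found in 22.8% and the T-box core in 1.97%, so the first is a common match and the second a rare one.

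Among the Gli factors, Gli1 had the fewest differences past the test. Of its 8 tested regions, 0 passed between E11.5 and E17.5, where 11.2% of all regions were higher and 30.5% lower (with equal numbers 1 was higher). In EPDC, 1 of the 8 was lower than in either epicardial group, where 28% and 20% of all regions were, and 0 were higher, where 12.7% and 24.2% were. That region, chr10:127350539-127351039, lies over an exon of Inhbe, 8.8 kb upstream of Gli1, and was at 86.7, 89.96 and 89.98 at E11.5, 86.0, 89.1 and 86.4 at E17.5 and 69.8, 75.6 and 80.8 in EPDC (-13.50 ± 2.60 and -11.8 points, adjusted p = 0.00318 and 0.00519). With summits ranked by fold enrichment, the difference from E11.5 did not pass (adjusted p = 0.139). The highest Gli1 promoter summit lies in an intron 2.8 kb inside the gene, at chr10:127338880-127339380, and stood at 87.0 to 92.4, while the window at the 5′ end of the gene (chr10:127341616-127342116) was at 0 to 32.4. A distal element in an intron of R3hdm2, 84.9 kb upstream of Gli1, was read because it had been proposed for lung mesothelium, and it had neither a summit nor a called interval in any of the 9 libraries. The site of highest mean outside the promoter was the start of Mars (chr10:127311492-127311992, 92.4 to 97.9).

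Gli2, the main activator, had the most regions. Of 38 tested regions, 7 rose and 10 fell from E11.5 to E17.5, 8 were higher and 10 lower in EPDC than at E11.5, and 12 were higher and 7 lower in EPDC than at E17.5. In the same order these were 18.4% and 26.3% (11.2% and 30.5% of all regions), 21.1% and 26.3% (12.7% and 28%) and 31.6% and 18.4% (24.2% and 20%). With equal numbers the counts were 7 and 6, 9 and 6, and 9 and 7. EPDC stood apart at a group of intronic sites 116.9 to 174.9 kb from the start. At chr1:118878216-118878716 the percentiles were 52.3, 45.04 and 43.3 at E11.5, 0, 0 and 12.48 at E17.5 and 87.2, 85.0 and 85.7 in EPDC, a difference from E11.5 of -42.7 points at E17.5 and of 39.1 points in EPDC (adjusted p = 0.000318 and 0.000609). With equal numbers these were -24.7 and 58.1 points (adjusted p = 0.0181 and 0.000366). The 3 groups did not overlap. Its 200 central bases, shown as the strongest Gli2 difference, hold none of the motifs (chr1:118878366-118878565):
Gli2 intron: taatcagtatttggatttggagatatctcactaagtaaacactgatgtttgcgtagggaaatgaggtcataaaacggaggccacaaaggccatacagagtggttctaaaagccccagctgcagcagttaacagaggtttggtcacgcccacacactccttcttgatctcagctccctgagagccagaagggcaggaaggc

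A second EPDC site of Gli2, chr1:118936169-118936669, was at 34.3, 36.4 and 27.4, then 8.6, 3.9 and 17.46, then 86.2, 88.0 and 87.6 (54.6 ± 5.57 points above E11.5, adjusted p = 0.000105). Its neighbour chr1:118935571-118936071 was at 0 to 4.5 in the epicardial libraries and 58.5, 64.3 and 70.6 in EPDC (adjusted p = 4.46e-05), and chr1:118927567-118928067 was at 0 at E11.5, 29.2, 29.5 and 35.6 at E17.5 and 70.9, 79.0 and 87.6 in EPDC (79.2 points above E11.5, adjusted p = 2.27e-05). These sites were high in the E12.5 library as well as in both E13.5 libraries.

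Other Gli2 introns were open in epicardium and nearly uncalled in EPDC. At chr1:118873619-118874119 the values were 73.7, 69.0 and 69.6 at E11.5, 65.7, 76.7 and 79.2 at E17.5 and 0, 0.1 and 19.8 in EPDC (-64.1 ± 6.71 points, adjusted p = 0.000132). At chr1:118916359-118916859 they were 42.3, 19.3 and 37.9, then 62.1, 83.0 and 76.6, then 0, 0 and 5.4, so that the E17.5 libraries were highest (-72.1 points for EPDC minus E17.5, adjusted p = 1e-04). The first of these lies close to the EPDC site at chr1:118878216-118878716.

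Further Gli2 introns were called mainly in, or missing from, the E17.5 libraries. At chr1:118975356-118975856 all E11.5 and EPDC libraries were at 0 and the E17.5 libraries at 50.8, 75.6 and 63.3 (means 63.3 points apart), and chr1:119013279-119013779 showed 0, 13.9 and 0, then 28.3, 63.4 and 60.5, then 0 in EPDC. At chr1:118904987-118905487 the E17.5 libraries were at 0, beside 44.9, 49.7 and 61.1 at E11.5 and 37.4, 38.2 and 43.2 in EPDC (-51.9 ± 5.85 points, adjusted p = 0.000147, and -32.8 with equal numbers), and chr1:118940139-118940639 had the same shape at 38.6 to 48.2, 0 and 33.8 to 48.1 (-44.1 points, and -21.9 with equal numbers). The strongest intronic site, chr1:118976498-118976998, was constant by comparison, at 96.3 to 98.3, although it lies next to a region seen only at E17.5.

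**Figure D4:**
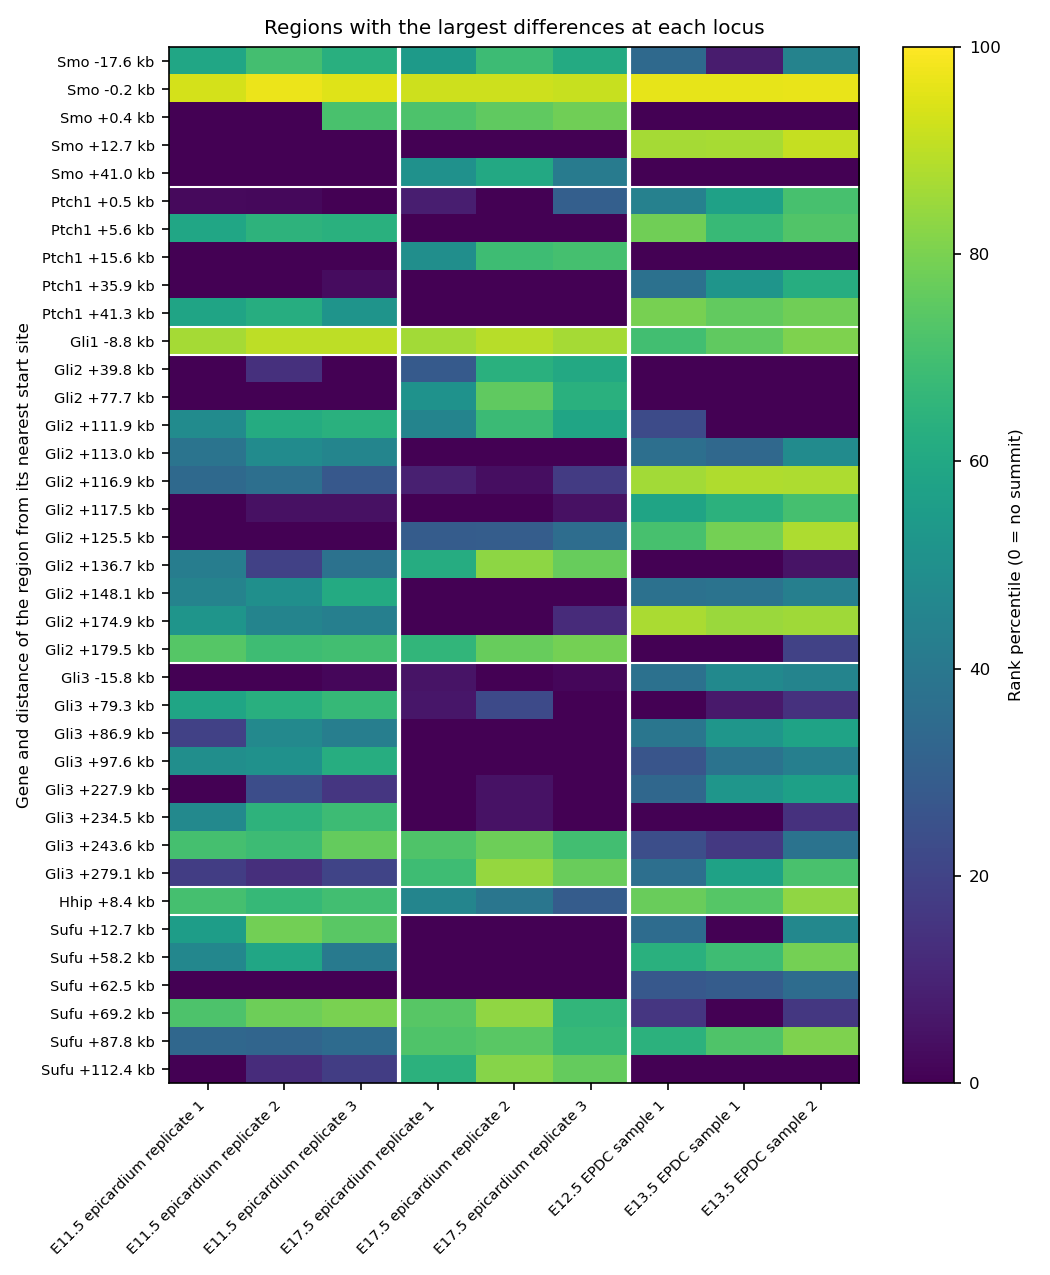
Rank percentile (colour, 0 to 100) in the 9 libraries (columns, grouped by white lines) for the regions with the largest tested differences at each gene (rows, with the distance in kb from the nearest start site). Rows dark in the E17.5 columns only, such as Ptch1 +5.6 kb, Gli2 +148.1 kb and Sufu +58.2 kb, stand beside rows bright only there, such as Ptch1 +15.6 kb, and rows bright in EPDC only, such as Smo +12.7 kb.

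Gli3, which serves chiefly as the repressor, had more falling than rising regions between E11.5 and E17.5. Of 29 tested regions, 13 fell (44.8%, against 30.5% of all regions) and 1 rose (3.45%, against 11.2%), with a median of -17.8 points. With equal numbers 7 fell (24.1%, against 17.8%) and 1 rose (3.45%, against 15%), with a median of -7.92. Of the 18 that did not enter through 1 group, 9 fell (50%, against 32.6%) and 1 rose (5.56%, against 7.65%). Against E11.5, EPDC had 4 higher and 8 lower regions (13.8% and 27.6%, against 12.7% and 28% of all regions), and with equal numbers 5 and 4. Against E17.5, EPDC had 10 higher and 1 lower region (34.5% and 3.45%, against 24.2% and 20% of all regions), and with equal numbers 10 and 2. At chr13:15698223-15698723 the values were 47.1, 64.5 and 68.5 at E11.5, 0, 4.9 and 0 at E17.5 and 0, 0 and 14.3 in EPDC (differences from E11.5 of -58.4 and -55.3 points). At chr13:15561378-15561878 the fall, from 49.4, 50.6 and 62.4 to 0, left EPDC in between, at 26.4, 38.2 and 43.0 (-54.1 ± 6.39 points, adjusted p = 0.000188, and -35.8 with equal numbers).

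Some Gli3 introns stood high at E11.5 only and others at E11.5 and in EPDC. At chr13:15543010-15543510 the values were 59.0, 63.0 and 67.1, then 6.2, 22.6 and 0, then 0, 6.8 and 14.3, so E11.5 stood above both (-56.0 points for EPDC minus E11.5, adjusted p = 0.000376). At chr13:15550664-15551164 they were 19.3, 47.2 and 42.7, then 0, then 39.3, 52.5 and 58.1, and E17.5 stood below both (49.97 points for EPDC minus E17.5, adjusted p = 0.0011). At chr13:15691668-15692168 EPDC was the highest, with 0, 23.6 and 15.99, then 0, 4.9 and 0, then 33.3, 52.5 and 56.8 (45.9 points above E17.5, adjusted p = 0.0015). The reverse was seen at chr13:15707344-15707844, at 68.7 to 77.8 in both epicardial groups and 23.9, 16.5 and 38.2 in EPDC (-47.2 ± 6.02 points against E17.5, adjusted p = 0.000235).

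The single Gli3 region that rose by E17.5 lies past the end of the gene, in intergenic chr13:15742799-15743299. It was at 18.3, 13.46 and 20.5 at E11.5, 69.0, 84.1 and 77.2 at E17.5 and 36.5, 57.5 and 71.2 in EPDC (59.3 ± 8.59 points, adjusted p = 0.000611, and 37.7 points for EPDC, adjusted p = 0.00741). Its neighbour at chr13:15741717-15742217, the strongest site outside the promoter, was at 94.0, 95.5 and 95.7 at E11.5 but 87.0, 88.0 and 86.7 at E17.5. It fell by 7.88 points (adjusted p = 0.000126), so that neighbouring sites moved in opposite directions. The sequence around the rising summit is shown as it carries the largest Gli3 difference, with none of the motifs (chr13:15742949-15743148):
Gli3 3′ side: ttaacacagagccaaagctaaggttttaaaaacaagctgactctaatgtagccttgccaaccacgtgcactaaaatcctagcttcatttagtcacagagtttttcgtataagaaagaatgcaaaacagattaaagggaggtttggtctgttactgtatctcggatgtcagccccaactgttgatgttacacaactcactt
On the other side of Gli3, 15.8 kb upstream in an intron of the predicted gene Gm6556, chr13:15447223-15447723 was at 0 to 5.2 in the epicardial libraries and 37.4, 47.5 and 45.2 in EPDC (42.7 points above E11.5, adjusted p = 0.000166).

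The number of summits at each locus was also counted per 10000 summits of a library. Gli3 had 2.35, 2.59 and 2.32 at E11.5, 1.79, 2.03 and 1.95 at E17.5 and 2.35, 2.79 and 2.96 in EPDC, and Ptch1 had 1.34, 1.05 and 1.16, then 0.948, 1.41 and 1.02, then 1.57, 1.58 and 1.52. E17.5 was lowest at Gli3 and EPDC highest at Ptch1, each with no overlap. Smo was highest at E17.5, with 0.754, 0.701 and 0.798, then 0.948, 1.02 and 1.02, then 0.686, 0.744 and 0.759, and so was Gli2, with means of 3.06 ± 0.256, 3.41 ± 0.137 and 2.83 ± 0.267 (SD, n = 3). The smallest exact permutation p, 0.1, was reached at Smo, Gli2 and Gli3 for E17.5 against E11.5, at Ptch1 for EPDC against E11.5 and at all 4 genes for EPDC against E17.5. Gli1, Hhip and Sufu gave p of 0.2 to 0.8.

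Among the 19452 protein-coding genes with a summit in their locus, 27.8% lay wholly higher and 14% wholly lower at E17.5 than at E11.5, beside 2 (Smo and Gli2) and 1 (Gli3) of the 7 members. For EPDC against E11.5 the shares were 14.1% and 15.8%, beside 1 (Ptch1) and 0. For EPDC against E17.5 they were 12.6% and 26.1%, beside 2 (Ptch1 and Gli3) and 2 (Smo and Gli2). Over all 7 loci the density was 10.9 ± 0.255 at E11.5, 11.4 ± 0.272 at E17.5 and 11.4 ± 0.282 in EPDC, with exact permutation p of 0.2 to 1, in a design that cannot go below 0.1. The differences depended on the setting: with equal numbers EPDC minus E11.5 went from 0.528 to 1.02 and EPDC minus E17.5 from 0.00315 to 0.457 (exact permutation p of 0.1 and 0.2), with a stricter q the first was 0.837 (p = 0.1), and within 50 kb they were -0.318 and -0.737 (p of 0.6 and 0.1). Within 10 kb, E17.5 minus E11.5 went from 0.525 to 0.193 and EPDC minus E17.5 to 0.495 (exact permutation p of 0.1 and 0.2). E17.5 minus E11.5 was 0.562 with equal numbers and 0.651 with the stricter q (exact permutation p of 0.1 for both).

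Of 26 other genes of the pathway, 25 had a promoter summit in all 9 libraries, the exception being Shh. The promoter of this ligand was weak at E11.5 (28.8, 16.9 and 23.8), uncalled in all E17.5 libraries and at 13.1, 2.6 and 15.2 in EPDC. The other ligands ran from 8.8 to 60.3 (Ihh) and from 26.4 to 70.7 (Dhh), and Hhat, Disp1 and Scube2, which serve in the acylation and release of ligand, lay between 79.4 and 95.5. All 6 co-receptor and membrane genes were called throughout, from Boc at 74.7 to Gas1 at 99.1. In the cilium and transduction group, Gpr161, a ciliary receptor that restrains the pathway, had the widest range of all: 87.6, 90.9 and 90.8 at E11.5, 79.6, 86.9 and 76.3 at E17.5 and 60.7, 23.4 and 47.8 in EPDC. EPDC values of Gpr161 were below all epicardial ones, with a difference of -45.8 points from E11.5 (exact permutation p = 0.1). Of the targets, Foxl1 was weakest (14.6 to 41.7) and Bcl2 strongest (92.4 to 96.0).

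Around these 26 genes, 311 regions were tested. From E11.5 to E17.5, 34 rose and 84 fell (48 and 46 with equal numbers), where 11.2% and 30.5% of all regions did. EPDC had 37 higher and 68 lower regions than E11.5 (48 and 43), where 12.7% and 28% of all regions were, and 76 higher and 51 lower than E17.5 (68 and 57), where 24.2% and 20% were. In the same order, the shares of all regions with equal numbers were 15% and 17.8%, 15.3% and 17.53%, and 21.8% and 20.6%. By group, the ligands and release genes had 26 higher and 10 lower of 85 in EPDC against E17.5, the co-receptors 25 and 22 of 106, the cilium and transduction genes 7 and 14 of 55, and the targets 18 and 5 of 65. The member loci, with 33 higher and 20 lower of 133, lay between these.

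The 193 member regions had a median GC content of 51.5%, against 48.3% of all regions. Counting the 3 exact Gli matches, 32 of them (16.6%, against 10.7% of all regions) held GACCACCCA with at most 1 mismatch. Of the regions described, they include the Hhip intron, an inner Ptch1 promoter and the Gli2 intron called only at E17.5 (chr1:118975356-118975856). The Sufu intron nearly uncalled in EPDC (chr19:46465984-46466484), the window at the 5′ end of Gli1 and the Actr1a site near Sufu are also among them. The TEAD core ACATTCC was in 8.81% (12.0% of all), the AP-1 core TGANTCA in 20.7% (22.8%), the T-box core AGGTGTGA in 1.55% (1.97%), the GATA core AGATAA in 24.4% (29.8%) and the WT1 core GCGTGGGNG in 3.11% (1.87%). Matches were counted on both strands, and overlaps between motifs were not removed. Outside promoters, in 171 regions, the exact Gli match was in 0.585% and the match with at most 1 mismatch in 14.6%.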

How the data were processed

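Nuclei were tagged by ATAC-seq and the authors called peaks with MACS2 2.2.9.1 against mm10 after removing duplicate, multi-mapped, blacklisted and mitochondrial reads. The deposited lists give each peak's fold enrichment (a ratio over local background), −log10 p and −log10 q, and 1 summit. No read counts were used. Summits of all 9 lists were merged into 501 bp regions, the strongest first, and each library's highest summit in a region was turned into a rank percentile by −log10 p. Regions called in at least 3 libraries were fitted with limma 3.58.1 on group alone, over all 9 libraries, which share 1 estimate of spread, with Benjamini-Hochberg adjustment. Single values were compared by exact two-sided permutation. Named regions were the non-promoter region of highest mean and, per comparison and direction, up to 2 of the largest passing differences of each gene. In simulated data, 97.7% of shifts of 40 points and 33.0% of shifts of 15 points were found. Gene models came from GENCODE M21 and sequences from RefSeq GRCm38.p6, the assembly of mm10. Libraries pool littermates, so p-values measure the spread between pools, and in EPDC also that between E12.5 and E13.5. The choice of this pathway and of the other lists and tests was made with earlier results of these data known.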

Additional observations from a re-analysis of the deposited data

How the results depend on the processing

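With equal numbers of summits, the regions lower at E17.5 than at E11.5 went from 33 to 21 and those lower in EPDC than at E11.5 from 25 to 16. Leaving out 1 library at a time gave 13 to 15 higher and 29 to 34 lower regions for E17.5 against E11.5, 17 to 27 and 18 to 27 for EPDC against E11.5, and 27 to 40 and 17 to 22 for EPDC against E17.5. Of 55 named differences, 7 lost their call under at least 1 alternative, and with equal numbers 54 still passed; both counts include regions that entered the test through 1 group only. With those regions left out, an alternative chosen after seeing the data, 7 regions in place of 16 were higher at E17.5 than at E11.5, and 11 in place of 20 lower in EPDC than at E17.5.

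Read by any overlapping interval, the Smo region at chr6:29735863-29736363 gave -3.00 for E17.5 minus E11.5 and 4.12 for EPDC minus E17.5, opposite to the values by summit. Both equal the differences of the promoter region beside it, chr6:29735259-29735759. Why the summits differ was not tested. Differences in summits per 10000 that reversed were, at Ptch1 for E17.5 minus E11.5, 0.140 with equal numbers, 0.0971 with −log10 q of at least 5 and 0.0265 within 10 kb; at Gli1, -0.0408 within 50 kb for E17.5 minus E11.5 and 0.0291 with the stricter q for EPDC minus E11.5; within 10 kb, 0.0632 at Gli2 for EPDC minus E11.5 and 0.135 at Sufu for EPDC minus E17.5; and over all 7 loci within 50 kb, -0.318 and -0.737 for EPDC minus E11.5 and E17.5. Without single libraries the ranges were -0.0463 to 0.00233 (Smo, EPDC minus E11.5), -0.198 to 0.0316 and -0.0168 to 0.225 (Ptch1 and Gli1, E17.5 minus E11.5), -0.0784 to 0.0282 (Gli1, EPDC minus E11.5), -0.105 to 0.0117 and -0.341 to 0.0170 (Hhip and Sufu, EPDC minus E17.5), and over all 7 loci 0.413 to 0.679, 0.411 to 0.685 and -0.151 to 0.160. Inside these ranges, the sign also turned at Smo without the E12.5 EPDC sample (0.000417), at Ptch1 without E11.5 replicate 1 (0.0207) and, over all 7 loci for EPDC minus E17.5 (0.00315), without the E12.5 (-0.0375) or the first E13.5 EPDC sample (-0.113). It was kept at Hhip without E17.5 replicate 2 (-0.0818) and over all 7 loci without E17.5 replicate 1 (0.105).

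Same-numbered E11.5 and E17.5 replicates had correlated deviations of 0.0158, 0.0789 and -0.0638, so the numbers do not pair the samples. With the replicate number as a block, 13 regions were higher and 28 lower at E17.5, the difference over all 7 loci was 0.525 summits per 10000, and the Smo promoter difference did not pass (adjusted p = 0.1004). Without the low-complexity Smo region, an alternative chosen after seeing the data, 19 and 32 regions were higher in EPDC. The lists hold no read depth, and a region at 0 may lie just under the caller's threshold.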
